A study of Mus musculus with 4 samples.

Results

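The genes described here are Icam1, Vcam1, Madcam1, Selp and Sele, which encode vascular adhesion molecules for leukocytes, and Olr1, which encodes a scavenger receptor. They were chosen by name, with their streptozotocin differences in these data already known, and were found through the RefSeq accession in the probe set identifiers. All 6 were present, each with 1 probe set, among 908 named genes and 1246 probe sets. The study asked how genes of sugar chains and cell signalling respond to streptozotocin while vascular smooth muscle cells (VSMC) calcify. Its 4 arrays hold cultured VSMC of wild-type mice, all kept in osteogenic medium, which turns them towards bone-like cells. The treated group (2 arrays) was given streptozotocin at 0.4 mM besides, a nitrosourea joined to a sugar, which kills pancreatic beta cells. The control group (2 arrays) received the osteogenic medium alone. The titles of all 4 arrays share a further tag, a number followed by the letter w, whose meaning is not given. Each group holds 1 array of cells named WT2 (replicate 1) and 1 of cells named WTA (replicate 2). These are referred to as cultures. Nothing in the labels tells whether they came from different animals, from pools or from clones, so p-values measure only the spread between these samples. With 1 array per culture and group, that spread is not one between like arrays. It holds differences between the cultures or between their streptozotocin differences, and may also be technical in part.

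Leukocytes leave the blood by rolling on selectins and then holding to adhesion molecules of the immunoglobulin superfamily, which their integrins bind. P-selectin and E-selectin are known from activated endothelium. ICAM-1 and VCAM-1 are made by endothelium and also by smooth muscle cells of inflamed arteries, and MAdCAM-1 is the addressin of gut vessels. The product of Olr1, LOX-1, takes up oxidised low-density lipoprotein and is found on endothelium, macrophages and smooth muscle cells. Genes of this group are textbook targets of NF-κB and AP-1, transcription factors that cytokines and oxidative stress activate.

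RefSeq promoter windows (build GRCm38.p6, from 250 bases before to 50 bases after the gene start) were found for 5 of the 6 genes, all but Vcam1. Those of the 3 genes with the widest spread over the arrays, Olr1, Icam1 and Selp, are shown with that of Madcam1, whose arrays lay close together. The motifs searched on both strands were the NF-κB consensus, the palindrome GGAAATTCC known from the human ICAM1 promoter, the AP-1 form TGANTCA, the interferon-linked form TTCCNGGAA and the TATA form TATAAA. They were chosen with these sequences in view. Capitals mark the matches, and no 2 matches overlap in these windows.
Olr1, chr6:129507116-129507415, minus strand: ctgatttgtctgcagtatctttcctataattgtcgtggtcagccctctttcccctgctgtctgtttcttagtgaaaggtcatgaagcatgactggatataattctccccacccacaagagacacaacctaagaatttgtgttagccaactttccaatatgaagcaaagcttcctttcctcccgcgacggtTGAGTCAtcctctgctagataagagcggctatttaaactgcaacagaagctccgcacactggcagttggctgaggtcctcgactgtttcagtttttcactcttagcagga
Icam1, chr9:21015690-21015989, plus strand: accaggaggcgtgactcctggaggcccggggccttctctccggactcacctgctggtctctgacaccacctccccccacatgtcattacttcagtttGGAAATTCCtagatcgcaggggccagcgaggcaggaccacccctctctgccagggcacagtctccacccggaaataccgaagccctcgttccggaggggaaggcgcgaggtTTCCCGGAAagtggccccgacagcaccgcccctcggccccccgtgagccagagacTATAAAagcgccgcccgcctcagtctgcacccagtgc
Selp, chr1:164115014-164115313, plus strand: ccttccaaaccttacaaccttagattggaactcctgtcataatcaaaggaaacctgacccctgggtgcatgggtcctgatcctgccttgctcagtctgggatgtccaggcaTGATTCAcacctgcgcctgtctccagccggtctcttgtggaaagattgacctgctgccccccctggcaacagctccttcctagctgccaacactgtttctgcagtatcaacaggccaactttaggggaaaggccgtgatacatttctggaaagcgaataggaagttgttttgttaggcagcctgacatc
Madcam1, chr10:79664309-79664608, plus strand: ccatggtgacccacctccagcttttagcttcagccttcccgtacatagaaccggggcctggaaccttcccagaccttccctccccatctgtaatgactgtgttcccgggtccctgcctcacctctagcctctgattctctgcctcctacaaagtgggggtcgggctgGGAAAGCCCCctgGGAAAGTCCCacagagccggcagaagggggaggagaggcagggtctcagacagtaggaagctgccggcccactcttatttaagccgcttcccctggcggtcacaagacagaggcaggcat
The Olr1 window held the AP-1 form 60 bases before the start, and the Selp window held it 139 bases before the start. The form searched leaves its middle base (N) free. That base was G in the Olr1 match and T in the Selp match. The Icam1 window held GGAAATTCC 153 bases before the start and the interferon-linked form 42 bases before it, with TATAAA from base 14 after the start. The NF-κB consensus was in the Madcam1 window, at 83 and 70 bases before the start. The Sele window, not shown, held the AP-1 form 73 and TATAAA 49 bases before the start. Of all 32851 promoter windows of this length, 8.46% held the NF-κB consensus, 0.317% GGAAATTCC, 7.81% the AP-1 form, 1.15% the interferon-linked form and 13.6% TATAAA. A match describes the letters and is neither a measured site nor a cause.

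The 4 arrays had medians between 5.83 and 5.87 on the log2 scale of the deposited values, with lower quartiles between 4.39 and 4.40. The differences between streptozotocin and control spread more widely in WT2 (SD over probe sets 0.402) than in WTA (0.220). None of 8 listed smooth muscle markers, among them Acta2 and Myh11, was among the named probe sets, so the labelled cell type was not checked against them. Of 15 endothelial markers 5 were measured, and of 18 leukocyte and macrophage markers 11. Of the endothelial markers, the adhesion molecule gene Pecam1 stood between 3.793 and 3.997 over the 4 arrays, below the lower quartiles. The others stood above them on some or all arrays, with Icam2 between 5.54 and 5.88, Thbd between 8.63 and 10.57, Emcn between 4.64 and 6.17 and Esm1 between 3.99 and 9.33.

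The first comparison set streptozotocin against control within each culture. Since the genes were chosen with this contrast in view, its values are a description with no test. Olr1 was higher with streptozotocin in both cultures, Icam1 mostly in WT2, and Selp more in WTA than in WT2, while Vcam1 and Madcam1 differed little. Sele stood near the low end of the arrays, where background holds much of a value.

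Olr1 had log2 values of 5.69 in WT2 control, 6.60 in WT2 streptozotocin, 5.07 in WTA control and 6.10 in WTA streptozotocin cells. Both treated arrays lay above both control arrays, and WTA lay below WT2 in either arm. The difference was 0.91 in WT2, or 1.87-fold, and 1.03 in WTA, or 2.04-fold. The group means were 6.35 ± 0.35 with streptozotocin and 5.38 ± 0.44 without (SD, n = 2 each). Only 1 of the 1246 probe sets had a larger positive difference in WTA, and 31 had one in WT2. The Olr1 probe set has an identifier ending in s, which can mean that its probes fit more than 1 transcript.

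Icam1, the ligand of the leukocyte integrins LFA-1 and Mac-1, stood at 7.73 in WT2 control, 9.28 in WT2 streptozotocin, 9.80 in WTA control and 9.93 in WTA streptozotocin cells. The WT2 control array was low, and the treated and control groups overlapped. The difference was 1.55 in WT2, or 2.92-fold, and 0.12 in WTA, or 1.09-fold. The group means were 9.60 ± 0.46 with streptozotocin and 8.77 ± 1.46 without (SD, n = 2 each). Without the WT2 control array, the mean of the treated arrays lay 0.20 below the single control (a difference of -0.20). That value also holds the difference between the cultures. WT2 streptozotocin lay below the WTA control, and WTA streptozotocin lay 0.12 above it. A larger difference in WT2 was found for 13 probe sets, and in WTA for 251.

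Vcam1, the ligand of the integrin VLA-4, stood at 10.44 in WT2 control, 10.79 in WT2 streptozotocin, 10.45 in WTA control and 10.54 in WTA streptozotocin cells. The control arrays were nearly equal, and both treated arrays lay above them, by 0.35 in WT2 and 0.09 in WTA. Larger positive differences were found for 118 probe sets in WT2 and 333 in WTA. Madcam1, which the gut-homing integrin binds, had 6.17, 6.34, 6.31 and 6.30 in the same order of arrays. Its arrays spanned 0.16, the narrowest spread of the 6 genes. In WT2 the treated array was higher by 0.16, and in WTA the difference was -0.01. After quantile normalization they were 0.024 and 0.0078, and after median centring 0.15 and 0.023, so the sign in WTA is not settled.

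Selp, which encodes the P-selectin that binds PSGL-1, stood at 5.65 in WT2 control, 5.98 in WT2 streptozotocin, 6.27 in WTA control and 6.93 in WTA streptozotocin cells. Each treated array lay above the control of its own culture, but WTA control lay above WT2 streptozotocin, so the groups overlapped. In Selp the cultures differed from their controls by 0.33 in WT2, or 1.26-fold, and 0.65 in WTA, or 1.57-fold. In WTA 6 probe sets had a larger positive difference, and in WT2 122 did. Sele, the gene of E-selectin, stood at 3.41, 3.14, 3.24 and 3.41 in WT2 control, WT2 streptozotocin, WTA control and WTA streptozotocin cells. All 4 values lay below the lower quartile of their arrays, and the difference was -0.27 in WT2 and 0.17 in WTA.

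**Figure D1:**
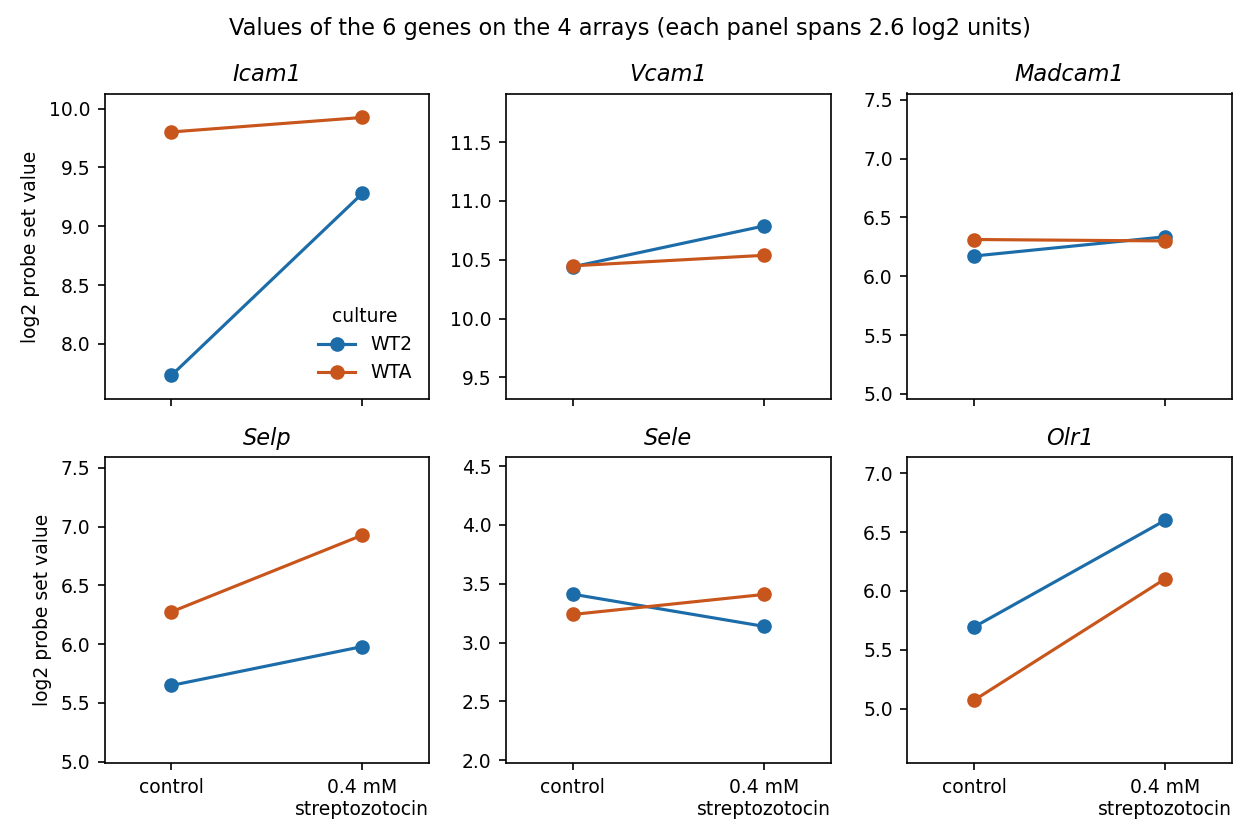
Log2 probe set values (vertical axis) of the 6 genes in control and streptozotocin cells (horizontal axis), 1 point per array, with lines joining the arrays of culture WT2 (blue) and of WTA (orange). Every panel spans the same height, and the lines of Olr1 run nearly in parallel (0.91 and 1.03), while that of Icam1 is steep in WT2 alone (1.55 against 0.12).

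Read against the whole array, 2 of the 6 genes (Icam1 and Olr1) were at least 1.5-fold higher with streptozotocin in WT2, where 4.82% of all probe sets were. In WTA 2 genes (Selp and Olr1) passed that size, where 0.642% of all probe sets did. Olr1 passed it in both cultures, as did 0.562% of all probe sets. At least 1.5-fold lower were 0 of the 6 genes in WT2 (2.49% of all probe sets), 0 in WTA (1.69%) and 0 in both (0.482%). Values above 0 in both cultures were found for 4 genes (Icam1, Vcam1, Selp and Olr1), against 22.6% of all probe sets. Both treated arrays lay above both control arrays for 2 genes (Vcam1 and Olr1), against 10.8%. The median difference over the 6 genes was 0.34 in WT2 and 0.15 in WTA, and over all probe sets -0.02 and 0.00. Nothing is read from these counts, because the genes were chosen on this contrast. In limma's fit of streptozotocin against control over all probe sets, 0% had an adjusted p under 0.05 (0 of 1246), with 25 at an unadjusted p under 0.05. With the replicate number as a block, limma again found 0 (0%), with 80 at an unadjusted p under 0.05.

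**Figure D2:**
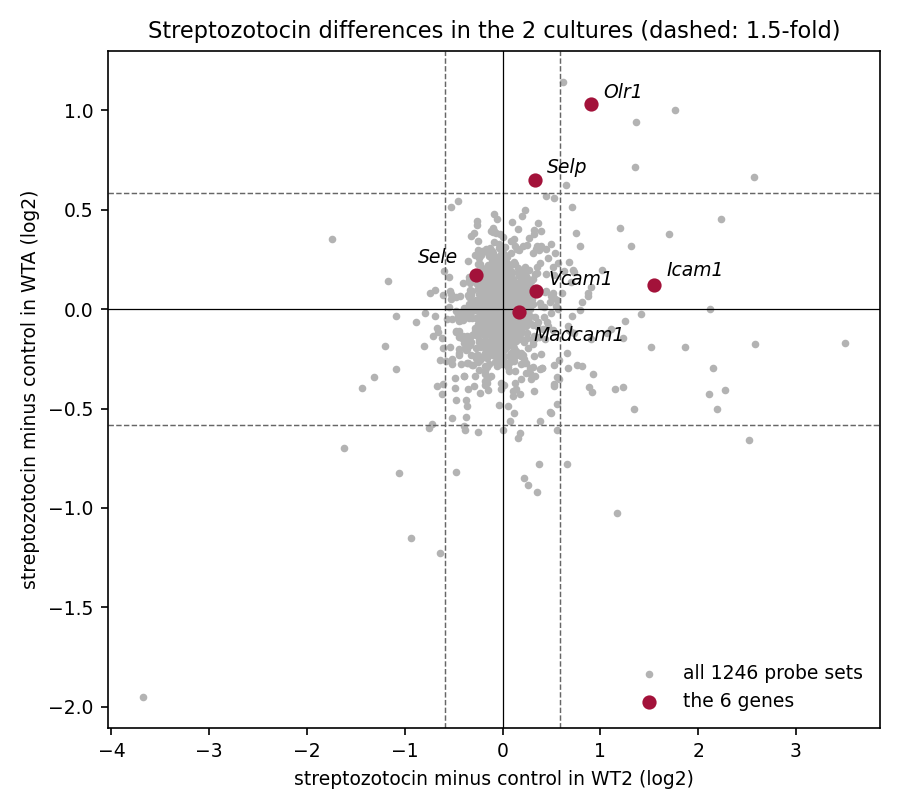
Streptozotocin minus control (log2) in WT2 on the horizontal and in WTA on the vertical axis, 1 grey point for each of 1246 probe sets and red points for the 6 genes, with dashed lines at 1.5-fold. Olr1 lies past 1.5-fold in both cultures, Icam1 in WT2 only and Selp in WTA only.

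The second comparison set the cultures against each other, a contrast the choice of genes did not use. Selp exceeded its WT2 level in WTA by 0.79 and Icam1 by 1.36 on the log2 scale, and Olr1 was lower in WTA by 0.56 (a difference of -0.56), but none of the 3 passed limma's test over all probe sets. Vcam1, Madcam1 and Sele differed by -0.12, 0.05 and 0.05. Of the 6 genes 0 passed at an adjusted p under 0.05, where 2.25% of all probe sets (28 of 1246) did, 1.44% higher and 0.803% lower in WTA, and 210 had an unadjusted p under 0.05. The fit held the treatment as a second term. Leaving out an array and fitting the culture term only, limma called 18 probe sets without WT2 streptozotocin, 12 without WT2 control, and 0 without either WTA array (77 and 111 at an unadjusted p under 0.05).

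For Selp, the WTA mean was 6.60 ± 0.46 and the WT2 mean 5.81 ± 0.23 (SD, n = 2 each), with WTA higher by 0.63 in control and by 0.95 in streptozotocin cells. Its limma interval ran from 0.43 to 1.14 (95%, SE 0.12, unadjusted p = 0.00410, adjusted p = 0.0897). With limma's robust variance fit the adjusted p of Selp was 0.0395, and over all alternatives run it lay between 0.0395 and 0.789. For Olr1, the WTA mean was 5.59 ± 0.73 and the WT2 mean 6.15 ± 0.64 (SD, n = 2 each), and WTA was lower in both arms, with a difference of -0.62 in control and -0.50 in streptozotocin cells. The limma interval of Olr1 ran from -0.84 to -0.28 (SE 0.10, adjusted p = 0.107, between 0.0615 and 0.979 over the alternatives).

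For Icam1, the WTA mean was 9.86 ± 0.09 and the WT2 mean 8.51 ± 1.09 (SD, n = 2 each). WTA was higher by 2.07 in control cells and by 0.65 in streptozotocin cells, so the cultures lay closer together in the treated arm. That change between the arms was not tested, since each culture holds 1 array per arm. The limma interval of Icam1 ran from 0.27 to 2.44 (SE 0.38, adjusted p = 0.218). Without the WT2 streptozotocin array, in a fit with the culture alone, the difference was 2.13 with a limma adjusted p of 0.0286. That fit sets 1 control array of WT2 against both WTA arrays, so it also holds the treatment difference, and the lone array is assumed to vary like WTA. Over all alternatives the adjusted p lay between 0.0286 and 0.798. The intervals of the other 3 genes held 0, from -0.45 to 0.21 for Vcam1, from -0.24 to 0.35 for Madcam1 and from -0.37 to 0.47 for Sele.

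Both WTA arrays lay above both WT2 arrays for Icam1 and Selp, 2 of the 6 genes, and for 21.3% of all probe sets. The opposite order was found for 0 of the 6 genes and for 27.7% of all probe sets. Endothelial markers were measured beside Icam1 and Selp, and 1 of 5 passed the test between the cultures. The mean log2 value of the 5 measured markers was 5.34 in WT2 control, 5.72 in WT2 streptozotocin, 7.02 in WTA control and 7.01 in WTA streptozotocin cells. That was Esm1, a secreted proteoglycan of endothelium (4.93 higher in WTA, limma adjusted p = 0.00304), whose difference makes up most of that between these means. Emcn and Thbd were higher in WTA by 1.22 and 1.33 without passing (limma adjusted p = 0.0873 and 0.104), while Pecam1 and Icam2 differed by 0.15 and -0.19. The sialomucin gene Cd34, listed with the counter-receptors and not with these markers, went the other way. It was lower in WTA (-1.07, limma adjusted p = 0.0445). The mean of the 11 leukocyte and macrophage markers lay between 4.24 and 4.35 on all arrays. The part of either marker list in the culture differences was not tested. In bulk RNA, more cells of a type and more RNA per cell cannot be told apart.

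**Figure D3:**
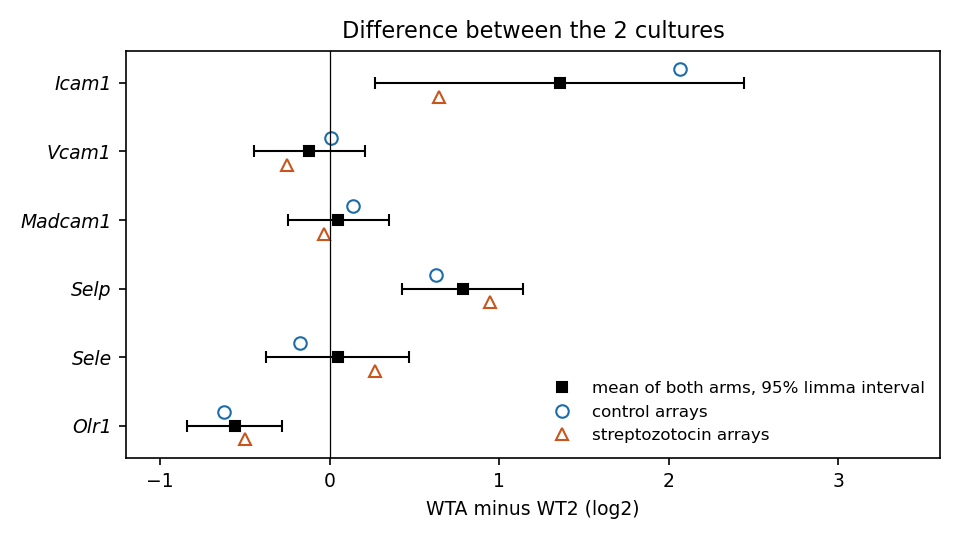
WTA minus WT2 (log2, horizontal axis) for the 6 genes, as the mean of both arms with limma's 95% interval (black squares and bars), in the control arrays (blue circles) and in the streptozotocin arrays (orange triangles). The intervals of Icam1, Selp and Olr1 leave out 0 before adjustment, and the arms lie far apart for Icam1 (2.07 and 0.65).

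The genes whose pattern over the 4 arrays was most alike were sought for Icam1, Selp and Olr1, whose arrays spanned 2.19, 1.28 and 1.53. As many as 23.3% of all probe sets spanned at least 0.5. The measure was the root mean square distance after each gene was centred on its own mean, over 4 arrays and 902 other named genes. For Icam1 the near genes included Il4ra, a receptor chain for interleukins 4 and 13, at 0.089, and Thbd, thrombomodulin, at 0.19, against a median of 0.89 over all genes. Il4ra stood at 6.13 in WT2 control, 7.54 in WT2 streptozotocin, 8.31 in WTA control and 8.29 in WTA streptozotocin cells, so it shared the low WT2 control array.

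For Selp the nearest were Met, the receptor of hepatocyte growth factor, at 0.10, the sulfotransferase gene Gal3st2 at 0.14 and Il1rap, the accessory chain of the interleukin 1 receptor, at 0.15, against a median of 0.49. In Met the treated cells were higher by 0.52 in WT2 and 0.56 in WTA. Il1rap was read from its brightest probe set (0.39 in WT2 and 0.39 in WTA), and a dimmer one differed by 0.15 and 0.01. For Olr1 the nearest genes lay farther off, with the secreted Angptl2 at 0.26, the fucosyltransferase gene Fut4 at 0.32 and Hgf, the hepatocyte growth factor, at 0.34, against a median of 0.58. Among the 6 genes themselves, Icam1 and Olr1 were the least alike (1.04) and Vcam1 and Madcam1 the most alike (0.11). With 4 arrays these distances describe a pattern and carry no test.

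Other genes of leukocyte adhesion were read from lists, each gene from its brightest probe set. Limma found 0 genes past the test for streptozotocin in every list, as on the whole array. Of 17 counter-receptors, the integrins, mucins and other partners of the adhesion molecules, 6 were measured. Selplg, the gene of the selectin ligand PSGL-1, had differences of -0.03 (WT2) and 0.13 (WTA). The hyaluronan receptor gene Cd44, which also carries selectin ligands, differed by 0.75 and 0.38, and the sialomucin gene Cd34 by -0.48 and -0.46. The median of this list was 0.00 in WT2 and -0.02 in WTA.

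Among 6 measured adhesion molecules of the immunoglobulin superfamily outside the chosen genes, 0 were past 1.5-fold in either culture, where 4.82% of all probe sets were higher and 2.49% lower in WT2, and 0.642% and 1.69% in WTA. Their medians were 0.03 in WT2 and -0.03 in WTA. Icam2, the constitutive endothelial relative of Icam1, differed by 0.23 and 0.07. Mcam, a melanoma and vessel wall adhesion molecule, differed by 0.02 and -0.14, and Pecam1 by 0.04 and -0.08.

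All 19 listed enzymes of selectin ligand synthesis were measured, and their median difference was -0.06 in WT2 and -0.02 in WTA. Values above 0 in both cultures were found for 4 of them and below 0 in both for 7, against 22.6% and 28.5% of all probe sets. The sulfotransferase gene Chst2 differed by -0.72 and -0.58, and the branching enzyme gene Gcnt1 by -1.09 and -0.03. A dimmer probe set of Gcnt1 differed by -0.53 and 0.08. Fut4 and Fut7 both encode enzymes that add the fucose of selectin ligands. Fut4 differed by 0.47 and 0.26, and Fut7 by -0.06 and -0.12. The sialyltransferase genes St3gal4 and St3gal6 differed by 0.22 and -0.14 in WT2 and by 0.10 and 0.27 in WTA. The galactosyltransferase genes B4galt1 and C1galt1, the latter for the core of most O-glycans, differed by 0.23 and 0.34 in WT2 and by -0.02 and 0.30 in WTA.

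A further list joined scavenger receptors, wherever their genes lie, to C-type lectins of the Olr1 gene cluster, and 4 of its 18 genes were measured. Colec12, a scavenger receptor that also binds oxidised low-density lipoprotein, differed by -0.43 and -0.28, opposite in sign to Olr1. Clec1a and Clec1b, lectin-like receptor genes, stood at 3.33 or below on all arrays, where background holds much of the value, and differed by -0.24 and -0.10 in WT2 and by -0.13 and 0.04 in WTA. The median of this list was -0.17 in WT2 and -0.20 in WTA.

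Of 19 cytokines and chemokines of the inflamed vessel wall 16 were measured. In WT2 7 of the 16 were at least 1.5-fold higher and 0 lower, where 4.82% and 2.49% of all probe sets were. In WTA 0 were higher and 3 lower, against 0.642% and 1.69%. The difference between the cultures was not tested, and differences were wider in WT2 over the whole array as well. The median was 0.44 in WT2 and -0.09 in WTA, and over all probe sets -0.02 and 0.00. The WT2 control array was the lowest of the 4 for 9 of these 16 genes, for 4 of the 6 chosen genes, and for 299 of all 1246 probe sets. Il6, a cytokine of acute inflammation, differed by 1.70 and 0.38, and the monocyte attractant Ccl7 by 2.24 and 0.45. The neutrophil attractant Cxcl1 differed by 2.11 and -0.43. Csf1, the macrophage growth factor, differed by 0.44 and 0.30, and Il1b by -0.17 and -0.16. Cx3cl1, a membrane-bound chemokine that also holds leukocytes, differed by -0.25 and -0.62. Chemokines outside this list were also measured. Among them, Ccl8 differed by 0.61 in WT2 and 1.15 in WTA, past 1.5-fold in both cultures. Ccl9 differed by 1.17 and -1.03, and Cxcl13 by 3.50 and -0.17.

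Among 9 measured receptors of inflammatory cytokines the medians were 0.26 in WT2 and -0.02 in WTA. Il1r1, the signalling receptor of interleukin 1, differed by 0.50 and -0.52. Endothelial markers had medians of 0.23 and 0.07, with Thbd at 1.01 and 0.20. Leukocyte markers had medians of -0.01 and 0.08, with Csf1r at -0.26 and 0.45. The part of either marker list in the streptozotocin differences was not tested. Between the cultures, limma called Cd34 lower in WTA (-1.07, adjusted p = 0.0445) and C1galt1 higher (0.97, adjusted p = 0.0445). With Esm1 that was 1 of 6 counter-receptors, 1 of 19 selectin ligand enzymes and 1 of 5 endothelial markers, and 0 genes in the other lists, where 2.25% of all probe sets were called.

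**Figure D4:**
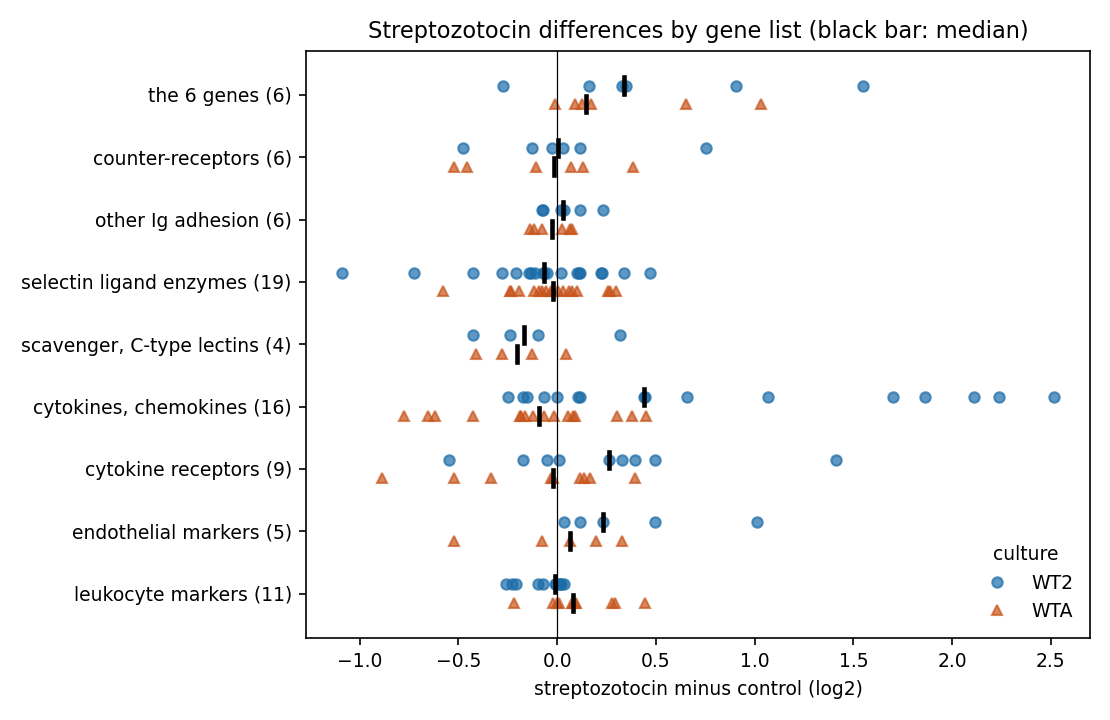
Streptozotocin minus control (log2, horizontal axis) for every measured gene of each list (rows, number of genes in brackets), in WT2 (blue circles) and WTA (orange triangles), with black bars at the medians. The listed cytokines and chemokines reach 2.52 in WT2 and 0.45 in WTA. Among the 6 genes the points farthest to the right are Icam1 in WT2 (1.55) and Olr1 in both cultures (0.91 and 1.03).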

How the data were processed

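Total RNA (Trizol, 0.5 ug) was labelled as biotin cRNA for Affymetrix arrays, per the labels' protocols. The authors deposited log2 values per probe set, and the submitters' processing notes name RMA. Its version and settings, and a genome build, are not given in the sources used. RMA makes the arrays' distributions alike, so a shift of most genes would not be seen, and it compresses differences of dim probe sets. Identifiers gave a symbol for 962 of 1246 probe sets, through RefSeq (GRCm38.p6, names only).

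Limma 3.58.1 in R 4.3.3 (lmFit, eBayes) was run over all probe sets with Benjamini-Hochberg adjustment at 0.05, for streptozotocin without a block and for the culture with treatment as a term. Both fits were run on simulated data. For streptozotocin these held no difference between the cultures, so they do not show how that fit performs here. The culture fit had 3.73 degrees of freedom, 2.73 of them prior. Its residual, like that of the fit with a block, is the gap between the streptozotocin differences of the 2 cultures. That gap (WT2 minus WTA) was 1.42 for Icam1 and -0.12 for Olr1, and it enters their SE. Without a block, the residual of the streptozotocin fit is the difference between the cultures. The number of arrays limits the precision. No filter on low values was used.

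The titles give both groups the same numbered cell samples, so the arrays are paired by number. Deviations from the group means correlated at 0.600 between arrays of 1 culture, across probe sets.

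The genes, lists and tests were chosen with earlier results of these data known. The genes named were the 6, those marked by name in the lists, and the 3 most alike for each of the 6 spanning at least 0.5, of which 1 is not reported here. Emcn, Esm1, Csf1r, Cd22, Siglec1, Cx3cr1, Ccl8, Ccl9, Cxcl13 and the list genes that limma called were named after their values were seen. Alternatives were quantile normalization, median centring, leaving out dim probe sets, a trend, a robust fit, the block, no treatment term, other thresholds and each array left out.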

Additional observations from a re-analysis of the deposited data

Results flagged for a closer look

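The streptozotocin difference had opposite signs in WT2 and WTA for 10 of 31 genes, the 6 chosen and 25 named from the lists. Each culture holds 1 array per arm, and the differences between the cultures were not tested. Among the 6 they were Madcam1 (0.16 in WT2, -0.012 in WTA) and Sele (-0.27 and 0.17). For Madcam1 both were above 0 after median centring (0.15 and 0.023) and after quantile normalization (0.024 and 0.0078). From the lists they were Cxcl1 (2.11 and -0.43), Il1r1 (0.50 and -0.52), B4galt1 (0.23 and -0.023) and St3gal6 (-0.14 and 0.27). They also included Selplg (-0.027 and 0.13), Pecam1 (0.035 and -0.078), Mcam (0.020 and -0.14) and Clec1b (-0.095 and 0.043). Over all probe sets, 594 of 1246 had opposite signs.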

How the results depend on the processing

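For streptozotocin, limma called 0 probe sets under every alternative run, the replicate block included (0 called, 80 at an unadjusted p under 0.05, smallest adjusted p 0.536). The block changed no call. For WTA minus WT2 it called 28 probe sets, 8 after quantile normalization, 2 of those above the median level, 49 with the robust fit, 13 without the treatment term and 64 at an adjusted p under 0.1. With each array left out, which leaves fewer samples, the count ranged from 0 to 18. Of the 6 genes 1 (Olr1) was at least 1.5-fold higher in both cultures, 2 (Selp and Olr1) past the smaller fold size tried and 0 at least 2-fold. The mean streptozotocin difference of Icam1 ranged from -0.20 to 1.87 with 1 array left out, that of Selp from 0.017 to 0.96 and that of Olr1 from 0.66 to 1.28. These values also hold the culture difference. With 1 array left out the culture difference changed sign for Vcam1 (-0.29 to 0.053), Madcam1 (-0.029 to 0.13) and Sele (-0.087 to 0.19). Selp passed the culture test with the robust fit, and at an adjusted p under 0.1, and Icam1 passed without the WT2 streptozotocin array. The other 58 of 65 culture values kept their direction and their side of the threshold. Sele fell outside the filter on dim probe sets, so 5 of the 6 genes were tested there. Chosen after seeing the data, the list values were also taken after median centring and quantile normalization. Of the cytokines and chemokines 7 and 6 were then at least 1.5-fold higher in WT2, and 2 and 2 lower in WTA. Some list medians within 0.03 of 0 changed sign under these scalings. Signal near background limits what Sele, Clec1a and Clec1b can show.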
